A study of Mus musculus with 4 samples.

Results

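Neutrophils of the mouse kidney were described from droplet single-cell RNA sequencing of dissociated kidney, in TrnE mutant mice (a point mutation of the glutamate tRNA encoded in mitochondrial DNA) and in wild-type C57BL/6J mice. There were 2 mutant libraries, with mutation loads of 79% (mutant 1) and 76% (mutant 2) per the labels, and 2 wild-type libraries, all from enzymatically dissociated kidney sorted for viable cells after lysis of red cells. The labels name no age, litter or day of preparation and do not state which animals gave each library, so p-values measure the spread between these libraries. The mutants were processed with Cell Ranger 7.0.0 and the wild types with 7.1.0, so that software version and group cannot be told apart, and the genotype could not be checked from the counts because the mutated tRNA gene is not among the counted genes. 1 wild-type library was deposited under a name like those of the mutants, and mutant 1 under a name with a number other than its labelled load. The labels were followed in both cases.

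A barcode was called a neutrophil by its raw UMIs (unique molecular identifiers, 1 for each captured transcript molecule). It needed at least 20 UMIs of S100a8 and S100a9 together, at least 2 of Retnlg, Csf3r and Cxcr2 together, fewer than 20 of the 3 C1q chains (macrophage genes) and none of Cd3d, Cd3e and Cd3g (T cell genes). Of 31041 barcodes with at least 500 UMIs, at least 200 genes and at most 50% mitochondrial UMIs, 143 met the rule, or 0.461%. Mutant 1 held 57 of them, mutant 2 held 41, wild type 1 held 41 and wild type 2 held 4. Wild type 2 stood apart, since it gave only 4 neutrophils and 20309 UMIs, against 177870 to 193012 UMIs in the other libraries. The neutrophil shares and the numbers of genes called are given with and without it. Most other comparisons of genotypes are given only with it.

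Neutrophils are short-lived phagocytes made in the bone marrow. They fill their primary, secondary and tertiary granules in that order while they mature, follow chemoattractants such as CXCL2 through CXCR2 into tissue, and kill microbes with granule proteins and with the reactive oxygen made by the NADPH oxidase. Mature cells transcribe little granule protein and hold few mitochondria. In the kidney they are few at rest and gather in the interstitium after injury or infection.

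The rule used expression, so the levels of its own genes describe the chosen cells and were not tested. The median neutrophil had 293 UMIs of S100a8 and S100a9 together and 29 of Retnlg, Csf3r and Cxcr2 together. S100a8 and S100a9, the subunits of calprotectin, were found in all 143 barcodes, Csf3r (the G-CSF receptor) in 134, Cxcr2 in 126 and Retnlg (resistin-like gamma) in 120. The S100 limit lay in a thinly filled range: 4 neutrophils had 20 to 49 UMIs of S100a8 and S100a9, 19 had 50 to 99 and 120 had 100 or more, while 6 barcodes that met the other limits had 10 to 19, all in mutant 1. At the limit on the receptors, 2 members had exactly 2 UMIs and 4 barcodes just outside had 1. The Cd3 limit took out 20 barcodes, of which 14 were in mutant 2, and the C1q limit took out 8. No gated barcode had more than 4 C1q UMIs.

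The label was checked against 12 neutrophil genes that the rule did not use. All 12 were detected, and 142 of the 143 barcodes had at least 1 UMI of any of them. Single genes were in fewer barcodes, for instance 133 for Hdc, 55 for Mmp8 and 23 for Ly6g. To set shares of cells beside those of other types at equal depth, each barcode was thinned to 1000 UMIs, which left out 6 neutrophils. Hdc, which makes histamine, was then found in 86.9% of neutrophils (93.0% unthinned) and 0.4% of classical monocytes. It was also in 12.1% of proximal tubule barcodes (24.4% unthinned), so it is not confined to neutrophils here. Il1r2, the decoy receptor for interleukin-1, was in 70.1% of neutrophils (89.5% unthinned) and 0.8% of monocytes. Mmp9, the gelatinase of tertiary granules, was found in 58.4% of neutrophils (88.1% unthinned), in 0.27% of macrophages and in no monocyte. Ly6g, the surface antigen by which mouse neutrophils are sorted, was seen in only 5.84% of them (exact 95% interval 2.55 to 11.2%, and 16.1% unthinned). After thinning it was in none of the monocytes, macrophages, B cells or proximal tubule barcodes. Before thinning it was in 3 of 1730 B cells and in none of the other 3 types. Median depths before thinning were 3050 UMIs for neutrophils, 11210.5 for monocytes, 6309 for macrophages, 9287 for B cells and 4078 for proximal tubule.

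Marker lists of other cell types were read over the same barcodes. The lists for mast cells and basophils, for red cells and for fibroblasts and mural cells summed to 0 UMIs over all 143 barcodes. The eosinophil granule genes Prg2 and Epx were at 0, but the eosinophil list had 19 UMIs in 12 barcodes, 18 of them on Siglecf (in 11 barcodes). F13a1 and Fn1 of classical monocytes and Cd79a and Ms4a1 of B cells were also at 0. Other lists had UMIs: 790 for dendritic cells (1585, 528, 2115 and 49 CPM, mostly Cd74, with 154 UMIs in 1 barcode), 358 for classical monocytes, 305 for non-classical monocytes, 194 for macrophages and 107 for B cells. Of tubule genes, the 6 proximal tubule markers summed to 896 UMIs, present in 112 barcodes (52 of 57, 28 of 41, 28 of 41 and 4 of 4 in the order mutant 1, mutant 2, wild type 1, wild type 2), and 430 of these UMIs sat in 1 barcode of mutant 2. Gpx3, a tubule gene of very high level, was found in 35.0% of thinned neutrophils, 21.0% of B cells and 97.8% of proximal tubule barcodes. By library it was in 46.4%, 25.6%, 26.3% and 50.0% of thinned neutrophils and in 27.4%, 12%, 15.8% and 23.4% of thinned B cells, which should lack it. Kap, also a proximal tubule gene, was in 0.73% of neutrophils and 5.49% of B cells, the latter mostly in wild type 2. Of the Gpx3 UMIs in neutrophils, 55.3% sat in 1 barcode of mutant 2. The source of these UMIs was not tested.

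A total of 9 neutrophil barcodes carried 10 or more tubule marker UMIs (3 in mutant 1, 4 in mutant 2, 2 in wild type 1), with a median depth of 10745 UMIs. The deepest neutrophil barcode, in wild type 1, had 27619 UMIs over 6157 genes, 146 of them on distal and collecting duct markers and 46 on thick ascending limb markers, beside 471 on S100a8 and S100a9. Scrublet did not call it a doublet. Scrublet called 3 of the 143, all in mutant 2, and 2.24% of all kept barcodes. Doublet calls were left in. Values with and without such barcodes are given for the neutrophil shares, the summed mitochondrial share, and the genotype and interaction tests. Most comparisons with monocytes are given over all 143 only, and some of their calls moved without such barcodes (examples below). No barcode sequence was called a neutrophil in more than 1 library, but some neutrophil sequences were also kept as another cell in a second library: 2 between the mutants, 1 between mutant 1 and wild type 1, and 1 between the wild types.

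**Figure D1:**
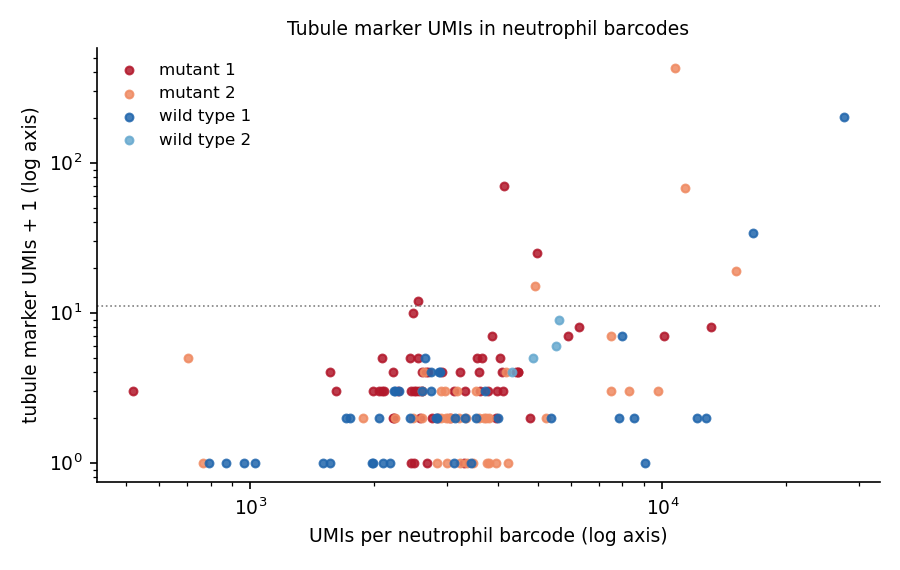
Each point is a neutrophil barcode, with its depth in UMIs on the x axis and its UMIs on 12 tubule markers plus 1 on the y axis (both log scales), coloured by library. The dotted line marks 10 marker UMIs: 9 barcodes lie at or above it, and the one farthest to the right is the wild type 1 barcode of 27619 UMIs.

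The neutrophil share did not separate mutants from wild types. It was 0.583% of kept barcodes in mutant 1 (exact 95% interval 0.442 to 0.755%), 0.452% in mutant 2 (0.325 to 0.613%), 0.711% in wild type 1 (0.511 to 0.963%) and 0.0622% in wild type 2 (0.017 to 0.159%). Both mutants lay between the 2 wild types, so the groups overlapped. The means were 0.518% ± 0.0928 in mutants and 0.387% ± 0.459 in wild types (SD, n = 2 each; exact permutation test, two-sided p = 1, where 0.333 is the smallest that 2 against 2 allows). Without wild type 2 the mutant mean was 0.193 percentage points below wild type 1, and without wild type 1 it was 0.455 above wild type 2. The intervals cover counting error only.

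Among leukocytes, taken as barcodes with at least 3 UMIs summed over Ptprc, Laptm5, Coro1a, Lcp1 and Cd52, the neutrophil share was 0.971%, 0.636%, 1.41% and 0.160% in the same order. The group means were 0.803% ± 0.237 and 0.786% ± 0.886 (SD, n = 2 each; exact permutation test, two-sided p = 1), a difference of 0.0169 points that was -0.610 without wild type 2, -0.151 without mutant 1 and 0.643 without wild type 1. Wild type 2 again lay below the other libraries, and it was also low in other myeloid cells, with 12 classical monocytes and 34 macrophages against 71 to 84 and 559 to 1837. For each 100 classical monocytes there were 80.3, 48.8, 49.4 and 33.3 neutrophils, a difference of 23.2 between the group means that the exact permutation test did not separate from the spread (two-sided p = 0.667, n = 2 each).

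**Figure D2:**
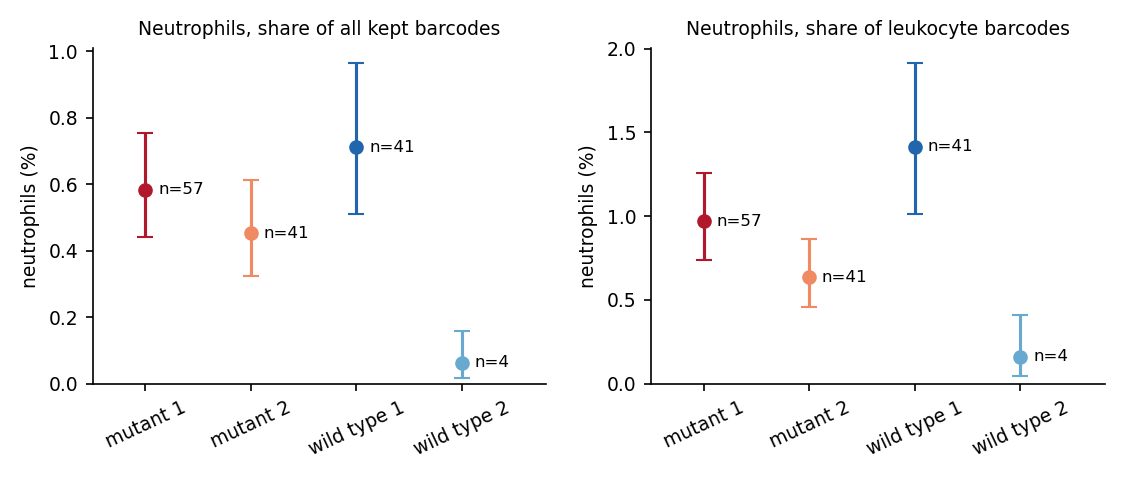
Neutrophils as a percentage of all kept barcodes (left) and of leukocyte barcodes (right) in each library, with exact 95% intervals for counting error and the number of neutrophils beside each point. Wild type 1 is highest and wild type 2 lowest in both panels, with both mutants between them.

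Levels are given as CPM, the UMIs of a gene over all UMIs of the summed neutrophils of a library in the usual scaling, in the order mutant 1, mutant 2, wild type 1, wild type 2. The kit reads 3′ ends, so CPM is not scaled by gene length. The highest mean was that of S100a9 (chromosome 3, 90692632 to 90695721, mm10, minus strand), at 70467, 41339, 38558 and 55985 CPM. S100a8 beside it (chromosome 3, 90668978 to 90670035, plus strand) had 50095, 26474, 29104 and 34024 CPM. Mutant 1 was the highest library for both, and mutant 2 lay beside the wild types.

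Il1b, which encodes the cytokine interleukin-1β (chromosome 2, 129364570 to 129371139), was the fifth most abundant transcript, after Tmsb4x and Malat1. It stood at 18911, 12712, 11048 and 21074 CPM, so mutants and wild types overlapped. At 1000 UMIs a cell it was found in 99.3% of neutrophils (97.9% of all 143 unthinned), 17.6% of classical monocytes, 21.1% of macrophages and 0.52% of B cells. Fth1, the ferritin heavy chain, and Retnlg followed among the highest, with Retnlg at 11196, 7376, 9237 and 6056 CPM.

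The comparison of neutrophils with classical monocytes of the same libraries shows how the gated cells differ. Monocytes were gated in turn on UMIs of Ly6c2, of Lyz2 and of Ccr2, F13a1 or Chil3, with no Cd3 or Cd79 UMIs and under 20 of S100a8 and S100a9 (250 barcodes), so both types were chosen by expression in the cells compared, and the counts below describe the gates and are not independent evidence of identity. Genes of either gate are given as values only. Of 2903 genes tested with the library as a block (edgeR's quasi-likelihood test, adjusted p under 0.05), 46.7% differed: 712 were higher in neutrophils (24.5%) and 644 lower (22.2%). Monocyte barcodes were deeper than neutrophils, as given above, and the part of depth in these differences was not tested. With relative log expression scaling (RLE) in place of TMM the split was 584 higher and 894 lower, a move of the median of all genes from -0.06 to -0.32 on the log2 scale. A gene seen in only 1 of the types passed the filter through that type, so the counts of a list's tested members are descriptions. Folds below are ratios of the summed levels over all 4 libraries, with exact 95% intervals for counting error.

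Primary granule genes were almost absent, while secondary and tertiary ones were mixed, with Ngp, Ltf and Camp in few barcodes (given below). None of the 7 primary granule genes counted (among them Mpo, Elane, Prtn3 and Ctsg, made in promyelocytes) passed the filter, and all but Prss57 had 0 UMIs in neutrophils. Of 12 genes tested from the secondary and tertiary granule list, 9 (Padi4 among them) were higher than in monocytes and 2 lower. Their median log2 difference was 3.35 beside -0.06 for all genes tested. The sum over all 18 listed genes, tested or not, went the other way. It was 17786, 10052, 9553 and 13836 CPM in neutrophils and 21081 to 26214 in monocytes. Mmp9 had 813, 770, 484 and 886 CPM in neutrophils and 0 UMIs in every monocyte library, at least 704-fold higher by a floor of 3 counts over the monocytes. Lcn2, the iron-siderophore binder lipocalin-2, stood at 3103, 613, 680 and 640 CPM, 446-fold (241 to 933) over monocytes. Mutant 1 was the highest library, and 17% of all Lcn2 UMIs came from 1 barcode of that library.

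That barcode was the one with the most S100a8 and S100a9 UMIs (4109 of 10086), and it also carried the late-precursor granule genes: Ngp reached 2114 CPM and Camp 694 CPM in mutant 1 and both were at 0 in the other 3 libraries. Over all neutrophils, Ngp was found in 1.46% at 1000 UMIs, Ltf in 1.46% and Camp in 0.73%. Slpi, an inhibitor of neutrophil elastase, was found in 91% of neutrophils, at 3984, 2131, 2463 and 3545 CPM against 82.2 to 216 in monocytes. Padi4, which citrullinates histones, had 62.2, 146, 103 and 197 CPM and was 8.24-fold higher than in monocytes (5.42 to 12.6). Cybb, the catalytic subunit of the NADPH oxidase, was the reverse: 57, 186, 462 and 0 CPM in neutrophils and 494 to 1507 in monocytes. The 2 wild-type values of Cybb lay on either side of the mutants'.

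Of 8 oxidase genes tested, 3 were higher in neutrophils, Ncf1 and Rac2 among them, and Cyba, Ncf4, Rac1 and Vav1 did not pass the test. Rac2, the GTPase that activates the complex in granulocytes, stood at 1850, 1192, 1017 and 1674 CPM, 3.59-fold over monocytes (3.27 to 3.93).

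Of 6 S100 and stefin genes tested outside the gate, 3 were higher and 2 lower, with a median log2 difference of 0.76. Stfa2l1, a cysteine protease inhibitor, had 731, 332, 631 and 985 CPM and 0 UMIs in monocytes, at least 590-fold higher. Cstdc4 of the same cluster had 767, 326, 837 and 1083 CPM and was at least 671-fold higher. Each was found in few cells: 33% for Stfa2l1 and 24% for Cstdc4. These genes have near-identical copies, as have the H2-Q and Ifitm families, and reads may be split among them. S100a6 and S100a11 were the other higher members, and S100a4 and S100a10 were lower: S100a4 had 0, 129, 234 and 0 CPM against 1484 to 2553 in monocytes.

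Chemoattractant receptors were higher in neutrophils wherever they were called, 6 of 7 tested (median log2 difference 3.31). C5ar1, the receptor for complement C5a, had 855, 579, 522 and 1477 CPM, 10.2-fold over monocytes (8.61 to 12.2). Fpr1, which binds formylated bacterial peptides, had 218, 202, 158 and 148 CPM and was 30.5-fold higher (18.6 to 52.6). Ccr1, Ccrl2, Ptafr and Cxcr4 were the other 4. Cxcr4, which holds neutrophils in the marrow and is high on aged cells, was found in 35.8% of thinned neutrophils and 8.0% of monocytes, at 409, 427, 353 and 1477 CPM. Ltb4r1, a leukotriene B4 receptor, was tested and did not pass. Cxcr1 was found in 1.46% of thinned neutrophils, where Cxcr2, a gate gene, was in 59.9%.

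Cytokine receptors were mixed. Of 16 tested, 7 were higher, among them Il1r2 (2145, 1529, 1473 and 3841 CPM, 287-fold over monocytes, 183 to 479) and Il1rap, the shared interleukin-1 receptor chain (31.6-fold, 23.1 to 44.2). Ifngr1, for interferon-γ, was lower at 171, 152, 212 and 394 CPM against 403 to 641. Of 12 adhesion genes tested, 6 were higher, among them Selplg (PSGL-1, a ligand of selectins), Cd44, Jaml, Itgal and Itgam. Selplg stood at 917, 725, 712 and 1231 CPM, 2.73-fold over monocytes (2.44 to 3.06). Cd177, a surface glycoprotein of neutrophils, was low at 25.9, 33.7, 21.7 and 49.2 CPM and was called lower than in monocytes.

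Receptors of innate recognition were higher in 11 of 14 tested and lower in 2, Pycard and Trem2. Trem1, which amplifies inflammatory signalling, had 855, 489, 315 and 1133 CPM, 48.7-fold over monocytes (34.5 to 70.8). The lectin receptors Clec4d and Clec4e were found in 87% and 80% of neutrophils before thinning. Cd14, a co-receptor for lipopolysaccharide, had 2171, 618, 506 and 295 CPM, with mutant 1 far above the other 3 libraries.

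**Figure D3:**
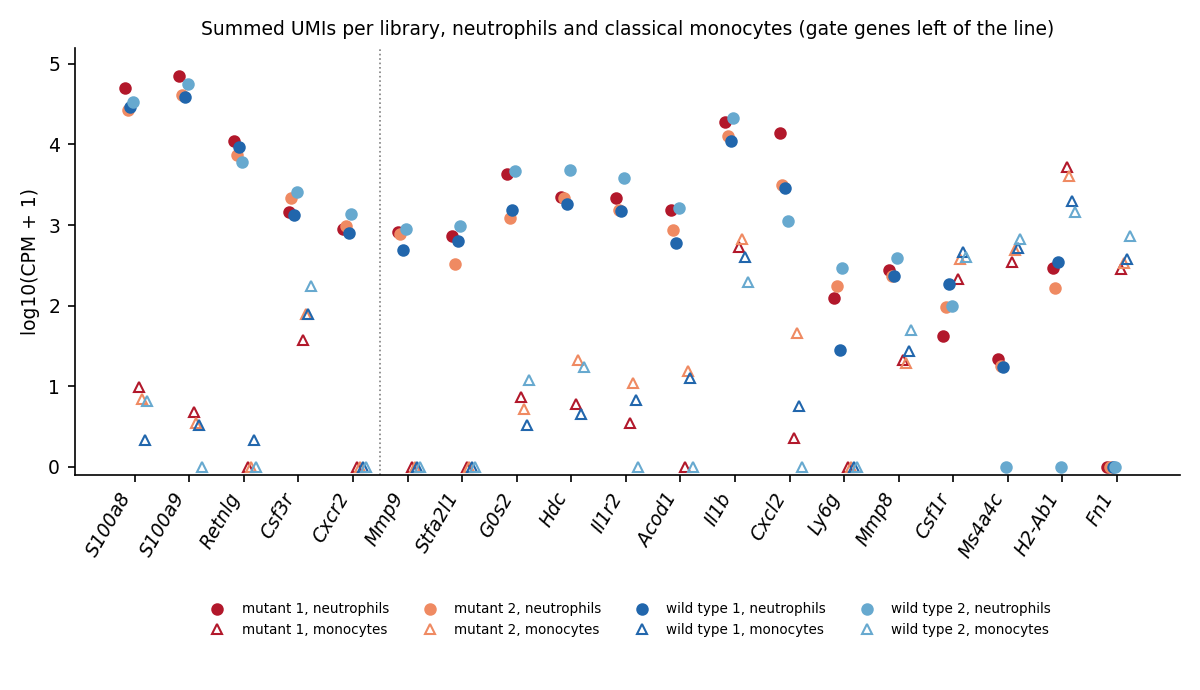
Levels of 19 genes as log10(CPM + 1) in the summed neutrophils (filled circles) and classical monocytes (open triangles) of each library. The 5 genes left of the dotted line were used by the neutrophil gate. Mmp9 and Stfa2l1 lie at 0 in every monocyte library, Fn1 at 0 in every neutrophil library, and Cxcl2 in neutrophils spreads from 1133 to 13704 CPM.

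Secreted factors of neutrophils followed Il1b. Of 10 cytokine and chemokine genes tested, 8 were higher than in monocytes and 2 lower, Tgfb1 and Ccl9. Cxcl2 (chromosome 5, 90903871 to 90905938), the ligand of CXCR2 that draws in further neutrophils, had 13704, 3137, 2887 and 1133 CPM in neutrophils and at most 45.4 in monocytes, a 335-fold difference over the summed UMIs (259 to 442). The fitted log2 difference was 8.86 over the 4 libraries, 7.61 without mutant 1 and 11.06 without mutant 2. Mutant 1 exceeded the other libraries, while mutant 2 lay within 1.5 times of wild type 1. Csf1, the macrophage growth factor, was 67-fold higher (31.2 to 171) at 197, 157, 109 and 148 CPM. Osm, oncostatin M, stood at 596, 315, 190 and 1182 CPM.

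Genes induced by NF-κB and genes that restrain it were higher in 14 of 19 tested and lower in none (median log2 difference 2.68). Nfkbia, the inhibitor IκBα, had 3316, 1242, 1430 and 1625 CPM, 6.87-fold over monocytes (6.29 to 7.51). Acod1, which makes itaconate, had 1534, 877, 593 and 1625 CPM, 116-fold (78.8 to 177). Ptgs2, the inducible cyclooxygenase, had 865, 607, 506 and 1723 CPM, 53.1-fold (38.3 to 75.4). For both Acod1 and Ptgs2, wild type 1 was the lowest library and wild type 2 the highest, so the groups overlapped.

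Immediate early genes were higher in 16 of 18 tested and lower in 1, Klf4 (median log2 difference 2.10). Dusp1, a phosphatase of MAP kinases, had 2150, 2474, 2621 and 5022 CPM against 241 to 433 in monocytes. Junb had 2943, 2772, 3159 and 5810 CPM and Fos 1554, 2406, 2387 and 3496 CPM. Wild type 2 was the highest library for each of the 3.

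Transcription factors of the granulocyte list were higher in 13 of 17 and lower in 2. Mxd1, an antagonist of MYC that rises as neutrophils mature, had 1249, 1462, 1256 and 2216 CPM, 124-fold over monocytes (87.6 to 181). Cebpb, which drives emergency granulopoiesis, had 4280, 2732, 2930 and 6893 CPM. Irf8, a regulator of the monocyte lineage, was among the lower, at 129, 39.4, 152 and 0 CPM against 382 to 570 in monocytes.

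Of 15 survival and apoptosis genes tested, 3 were higher (Mcl1, Pim1 and Birc3) and 2 lower (Bax and Bak1, which permeabilize mitochondria). Both counts were below the shares of 24.5% and 22.2% over all genes. With barcodes of at most 10% mitochondrial UMIs and fewer than 10 tubule marker UMIs, 5 of 14 tested were higher and 3 lower. The higher count was then above the share of all genes (25.7%) and the lower count below it (25.1%). Mcl1, on which neutrophil survival depends, stood at 1694, 1956, 1446 and 2757 CPM. Of 18 cell cycle genes, 8 had no UMI in any neutrophil, Mki67, Top2a, Cdk1 and Ccnb1 among them. The list summed to 1492, 1394, 1376 and 1871 CPM in neutrophils and 2552, 1568, 1741 and 1665 in monocytes, which overlapped. Of the 3 tested, H2afz and Tubb5 were lower than in monocytes and Hmgb2 higher.

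Antigen presentation and ribosomal protein genes were mostly lower. Of 20 antigen presentation genes tested, 14 were lower than in monocytes and only Cd80, a costimulatory ligand, was higher (median log2 difference -1.75). Cd74, the invariant chain of MHC class II, had 1243, 360, 1740 and 49.2 CPM against 2619 to 18800 in monocytes, and 20% of its neutrophil UMIs sat in 1 barcode. H2-DMa and H2-DMb1, which load peptide onto class II, were each below 40 CPM in every neutrophil library. Of 59 cytosolic ribosomal protein genes, 56 were lower and none higher (median log2 difference -1.88). Summed, they stood at 40148, 44909, 60159 and 22896 CPM in neutrophils and at 135783 to 177305 in monocytes, with no overlap.

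Interferon-stimulated genes divided, with 10 higher and 14 lower of 25 tested. Ifitm1, a membrane restriction factor, had 1933, 2238, 598 and 2560 CPM, 205-fold over monocytes (137 to 321), and Slfn4 was 32.4-fold higher (21.2 to 51.7). Ifitm3, Ifi27l2a and Irf7 were among the lower. Isg15 was found in 21.2% of thinned neutrophils and 14.8% of monocytes, and 31% of its neutrophil UMIs came from 1 barcode.

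Genes of iron and redox handling were higher in 8 of 11 tested and lower in 1, Prdx1. Slc40a1, the iron exporter ferroportin, had 98.4, 174, 130 and 345 CPM in neutrophils and was at 0 in 3 of the 4 monocyte libraries. Slc7a11, the cystine importer, had 570, 787, 603 and 1674 CPM, 40.0-fold over monocytes (29.9 to 54.5). It is also listed with the integrated stress response, of which 4 of 10 tested were higher and 1 lower. Of 17 glycolysis and hypoxia genes tested, 7 were higher and none lower, among them the enzymes Aldoa (1.44-fold, 1.28 to 1.62) and Hk3 (3.63-fold, 2.57 to 5.11) and the regulator Pfkfb4. The transporters Slc2a3 (65.8-fold, 34.6 to 141), Slc2a1 (6.56-fold, 4.57 to 9.47) and Slc16a3 (7.54-fold, 6.09 to 9.34) and glycogen phosphorylase Pygl (6.06-fold, 5.02 to 7.32) were also higher, and the enzymes Gapdh, Pkm, Eno1 and Ldha did not pass the test. Lipid and amine mediators included Hdc at 2223, 2142, 1810 and 4875 CPM, 192-fold over monocytes (137 to 279).

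By size, the 10 genes most above monocytes outside the gates were Mmp9, Cstdc4, Stfa2l1, Wfdc21, Il1f9, Asprv1, Mrgpra2b, G0s2, Cxcl2 and H2-Q10. G0s2, an inhibitor of the lipase ATGL, had 4347, 1209, 1550 and 4727 CPM, 540-fold over monocytes (321 to 990). Il1f9, interleukin-36γ, had 249, 354, 228 and 246 CPM and 0 UMIs in monocytes, at least 277-fold higher. The 10 most below were Fn1, Naaa, Ms4a4c, H2-DMb1, H2-DMa, S100a4, Crip1, Ms4a6b, Ifi211 and Cd74. Fn1, fibronectin, had 0 UMIs in every neutrophil library and 282 to 740 CPM in monocytes, at least 68.7-fold lower by a floor of 3 counts over the neutrophils. All 20 were called in each of the 19 settings tried.

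Mitochondrial transcripts took up a small share of the UMIs of most neutrophils. The median neutrophil had 0.491%, 1.02%, 0.687% and 0.534% of its UMIs on the 13 mitochondrially encoded mRNAs, and the median classical monocyte 1.01%, 1.64%, 1.24% and 1.69%. Neutrophils were lower in 4 of 4 libraries, by 0.712 percentage points on average (SD 0.302; exact paired permutation test, two-sided p = 0.125, the smallest that 4 pairs allow). The medians of mutants and wild types overlapped (0.758% ± 0.377 and 0.610% ± 0.108, SD, n = 2 each; exact permutation test, two-sided p = 1).

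A few barcodes were high in mitochondrial UMIs. Of the 143, 91 were below 1% and 13 above 10%, of which 10 were in mutant 2, 2 in mutant 1, 1 in wild type 1 and none in wild type 2. Summed over cells, the mitochondrial share was 2.54% and 8.80% in mutants and 1.38% and 0.793% in wild types. As CPM, these sums were 25351, 88047, 13815 and 7928 in neutrophils and 16450, 24276, 27291 and 28926 in monocytes, so that neutrophils lay above monocytes in both mutants and below them in both wild types. Over all neutrophils, the summed shares of mutants and wild types do not overlap, and the exact permutation test gave its smallest value (two-sided p = 0.333). A limit of 25% mitochondrial UMIs left 56, 38, 41 and 4 neutrophils. Their summed shares were 1.30%, 5.70%, 1.38% and 0.793% and overlapped, since mutant 1 lay below wild type 1. Mutant 1 also lay below its own monocytes there, of which all 71 met that limit. With barcodes of at most 10% mitochondrial UMIs and fewer than 10 tubule marker UMIs (124 neutrophils: 52, 30, 38 and 4), the summed shares were 0.820%, 1.19%, 0.933% and 0.793% and overlapped. The 25% and 10% limits are on the mitochondrial share itself, so they lower high values by construction.

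**Figure D4:**
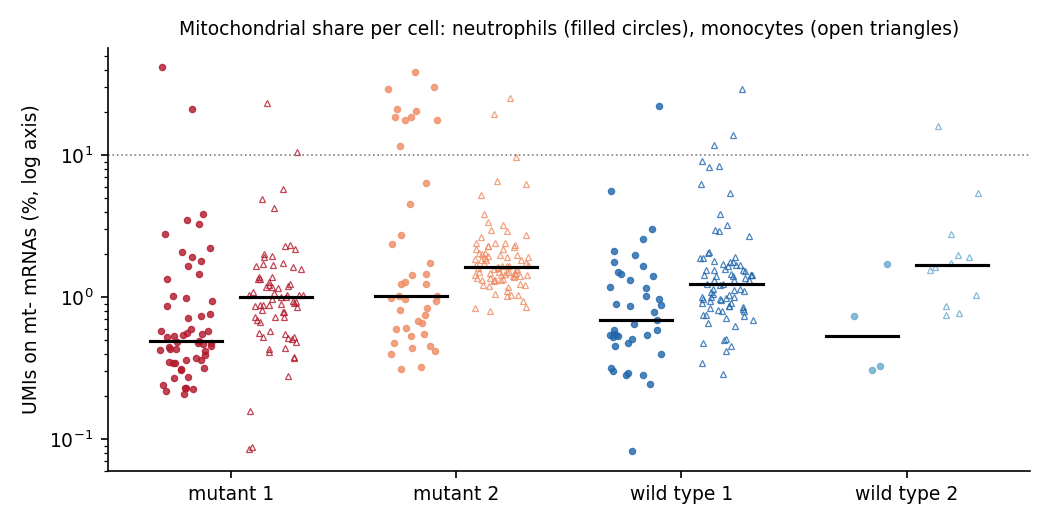
Share of UMIs on mitochondrially encoded mRNAs (log axis) in each neutrophil (filled circles) and classical monocyte (open triangles) by library, with black bars at the medians. The dotted line marks 10%: of the 13 neutrophils above it, 10 are in mutant 2. The neutrophil median lies below the monocyte median in each library.

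For the respiratory chain the difference from monocytes depended on whether barcodes outside the limits on mitochondrial share and tubule markers were kept. Over all neutrophils, no mitochondrial mRNA of 11 tested was called, with a median log2 difference of 0.23, and 3 of 71 nuclear subunit genes were lower, with a median of -0.15. In the 124 barcodes within both limits, where 25.7% of 2471 tested genes were higher and 25.1% lower, 28 of 68 nuclear subunit genes were lower and none higher (median -0.74). The summed nuclear subunits of neutrophils fell most in wild type 1, from 23009 to 11257 CPM. They went from 16175 to 15475 in mutant 1 and from 12526 to 9973 in mutant 2, and stayed at 8863 in wild type 2. Which of the 2 limits moved them was not tested. The mitochondrial mRNAs are not compared there, since the limit selects on them. The ribosomal list stood at 56 lower of 59 in both sets. Other calls moved within both limits. Padi4 and Aldoa were not called higher there, and Cd177 and Trem2 were not called lower. Of innate recognition receptors 9 of 12 tested were higher, and of antigen presentation genes 11 of 17 were lower.

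Single neutrophils varied widely in Cxcl2. In the 137 barcodes thinned to 1000 UMIs the mean was 7.40 Cxcl2 UMIs, the median 1 and the highest 76, with a Fano factor (variance over mean, 1 for counting error alone) of 21.3. Within mutant 1, mutant 2, wild type 1 and wild type 2 it was 20.4, 16.9, 11.9 and 4.00. Fth1 had one of 21.2, highest in mutant 1 (26.6) and 9.43, 11.3 and 3.60 in the others. That of Il1b was 8.10, and 8.13, 8.16 and 8.18 in the 3 libraries with more than 4 cells. Of the genes followed outside the gate, only Ngp was higher, at 29.1 with UMIs in 2 barcodes. The median Cxcl2 was 7 UMIs in mutant 1, 0 in mutant 2, 1 in wild type 1 and 0 in wild type 2, so libraries of 1 group differed as much as the groups did.

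Across cells, Cxcl2 correlated most with Nfkbia among the genes followed (Spearman rho 0.53, and 0.39, 0.47 and 0.51 within mutant 1, mutant 2 and wild type 1). For Il1b rho was 0.42, and 0.44, 0.29 and 0.43 within those libraries, and for Acod1 0.37, and 0.35, 0.25 and 0.34. It was lower within wild type 1 than pooled for Fth1 (0.43 pooled and 0.13 there) and Gadd45b (0.37 and 0.08), and lower within each library for Ier3 (0.35 pooled, then 0.27, 0.12 and 0.14). Retnlg correlated with S100a8 (0.55 pooled, and 0.68, 0.35 and 0.62) and S100a9 (0.54, and 0.71, 0.45 and 0.65), and with Ccl6 outside the gate (0.49, and 0.57, 0.31 and 0.52). These are descriptions over 137 barcodes that share 4 libraries and 1 fixed depth, and S100a8, S100a9 and Retnlg were in the gate. Cxcl2 and Retnlg themselves had a rho of -0.16, or -0.29, 0.02 and -0.06 within mutant 1, mutant 2 and wild type 1. Retnlg had a median of 2.5 UMIs in mutant 1, 4 in mutant 2, 10 in wild type 1 and 4 in wild type 2, with a pooled Fano factor of 15.9 (23.5, 14.7, 7.5 and 6.27 by library).

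**Figure D5:**
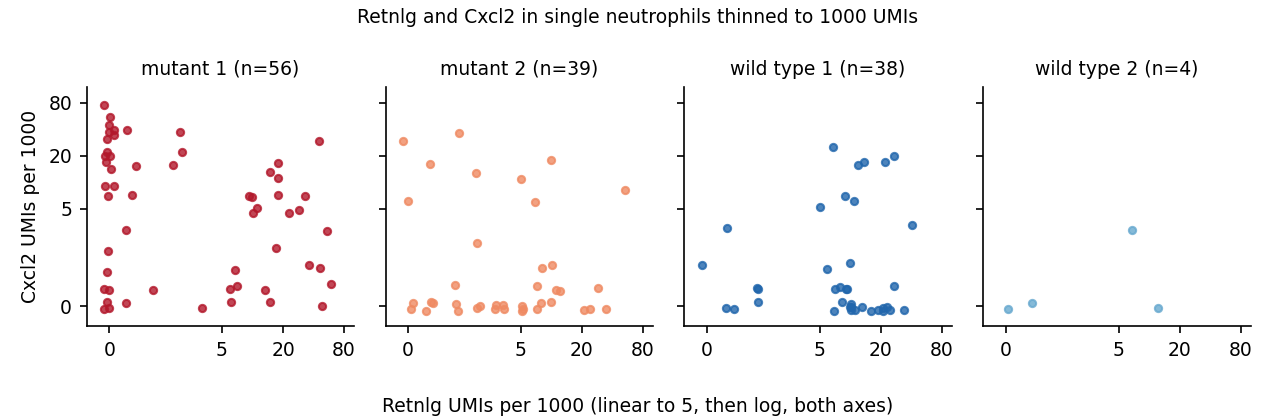
Retnlg (x axis) and Cxcl2 (y axis) UMIs in single neutrophils thinned to 1000 UMIs, 1 panel a library, on axes that are linear up to 5 and logarithmic above, with a small random shift to separate points. Many mutant 1 barcodes with Cxcl2 lie at 0 Retnlg, and most wild type 1 barcodes hold Retnlg with little or no Cxcl2.

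Expression within neutrophils was then compared between mutants and wild types. Of 2590 genes tested, 2 passed edgeR's quasi-likelihood test at an adjusted p under 0.05, or 0.0772%, and both were lower in mutants. In simulated data, with only better-counted genes changed, this test found 3 of 67 changed 2-fold and 23 of 67 changed 4-fold. Few calls therefore do not show that little changed. Wfdc15b, of the whey acidic protein family, had 5.18, 0, 299 and 98.5 CPM (log2 difference -5.89, SE 1.02, adjusted p = 0.0244). Chka, choline kinase alpha, had 31.1, 5.62, 495 and 148 CPM (log2 difference -4.05, SE 0.78, adjusted p = 0.0494). Of the UMIs, 95% of Wfdc15b and 88% of Chka came from the wild type 1 barcode of 27619 UMIs that also held 146 distal tubule marker UMIs.

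Without the 9 barcodes that carried 10 or more tubule marker UMIs no gene passed (edgeR, 0 of 2034, with 53 at an unadjusted p under 0.05). DESeq2 on all 143 called 4 genes, all higher in mutants: mt-Atp6, mt-Co2, mt-Nd1 and mt-Nd5. When only the deepest barcode was left out, edgeR called 10 genes and all were higher in mutants, 7 of them mitochondrial mRNAs beside Ccl3, Spp1 and Ier3. Within both limits, on mitochondrial share and on tubule markers, edgeR called none of 1924 genes (35 at an unadjusted p under 0.05). With all barcodes, edgeR called 13 genes without mutant 1, 9 without mutant 2, 14 without wild type 1 and 48 without wild type 2, where the lone library of a group is assumed to vary like the others.

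All 11 mitochondrial mRNAs tested had positive log2 differences, with a median of 2.68 beside 0.02 for all genes, and none passed. mt-Nd5, a complex I subunit, had 440, 2221, 130 and 98.5 CPM (log2 difference 3.54, adjusted p = 0.11). mt-Co2, of cytochrome c oxidase, had 3653, 12352, 1691 and 788 CPM. Mutant 2 was highest for each, and it held 10 of the 13 barcodes above 10% mitochondrial UMIs.

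Of the remaining lists, none had a called member, and their medians ranged around that of all genes. Ccl3 (chromosome 11, 83647844 to 83649355), a chemokine for monocytes and neutrophils, came nearest, at 430, 495, 48.9 and 0 CPM with a log2 difference of 3.63 and an adjusted p of 0.0519 (0.000245 to 0.997 over the settings tried, past the threshold in 8 of 22). Both mutants lay above both wild types, as they did for 11.5% of all genes tested, and it was found in 19.6% of all neutrophils, with 31% of its UMIs in 1 barcode. Interferon-stimulated genes had a median log2 difference of 0.50 over 20 tested, and immediate early genes one of -0.46 over 19. The NADPH oxidase list had 0.78 over 8 and the ribosomal list 0.12 over 59. Cxcl2 differed by 2.30 on the log2 scale (adjusted p = 0.68), and mutant 1 was the only library above 3137 CPM.

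Whether the mutant effect in neutrophils differed from that in classical monocytes was tested as an interaction. Of 3843 genes, 14 passed (0.364%), 8 with a more positive mutant effect in neutrophils (0.208%) and 6 with a more negative one (0.156%). Of the 8, 7 were mitochondrial mRNAs, among them mt-Nd4l (log2 3.41), mt-Nd2 (3.37) and mt-Nd4 (3.27), and the eighth was Hcar2, a receptor for β-hydroxybutyrate and niacin (4.77). Hcar2 had 518, 478, 136 and 295 CPM in neutrophils and at most 11 in monocytes, so its interaction rests in part on low monocyte levels. It was called in 7 of the 19 settings tried. Among the 6 were Chka (-4.42), Ckb, brain-type creatine kinase (-4.30), and P3h2, a collagen prolyl hydroxylase (-9.60). All P3h2 UMIs in neutrophils and 88% of those of Ckb were in the deepest barcode of wild type 1. Within both limits no gene passed (edgeR, 0 of 3427, with 125 at an unadjusted p under 0.05), and DESeq2 on all barcodes called none (75 at an unadjusted p under 0.05). With a library left out edgeR called none without mutant 1, 1 without mutant 2, 1 without wild type 1 and 2 without wild type 2.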

How the data were processed

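The authors deposited raw UMI counts per gene and barcode for 4 kidney libraries, made with Cell Ranger 7.0.0 (mutants) and 7.1.0 (wild types) against mm10, per the submitters' processing notes. The labels state neither the annotation release nor the counting settings. The libraries held 65565948, 70013861, 42121175 and 59946996 UMIs over 32285 genes.

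Here barcodes were filtered and gated as the report states, with no correction for free RNA and no removal of doublets. Counts were summed per library over neutrophils and classical monocytes. edgeR 4.0.16 (R 4.3.3) was run with filterByExpr, TMM, the quasi-likelihood test and Benjamini-Hochberg adjustment over all genes tested, after being tested on simulated data. There the genotype test found 4.48% of genes changed 2-fold, 34.3% of those changed 4-fold and 71.2% of those changed 8-fold. The comparison with monocytes found 28.4%, 86.6% and 74.2%, and the interaction 0%, 22.4% and 53.0%. Unchanged genes called numbered 1, 7 and 1 in the same order. The changed genes were drawn only from the better-counted ones, so these rates do not cover the sparsest genes. DESeq2 1.42.0 and Scrublet (scanpy 1.11.5) were alternatives. Shares were compared by exact permutation over libraries. Other scalings, filters, gates, mitochondrial limits and left-out libraries were tried, and limits on tubule markers, a 10% mitochondrial limit and leaving out the deepest barcode were added after seeing the data. Members and the 26 gene lists (586 genes, 580 found) were chosen with earlier results of these data known. Genes were named by a rule: the 10 largest differences each way past the threshold with a mean of at least 30 CPM (100 CPM between cell types, without gate genes), the 10 smallest p where fewer than 10 passed, up to 10 of the interaction by adjusted p, the gate genes, the 15 highest levels, the mitochondrial mRNAs, and of each list up to 4 members by level with every member past the threshold. Other genes were named after their values were seen. Positions are from GENCODE M21 (mm10), found for 680 of 680 named genes.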

Additional observations from a re-analysis of the deposited data

Results flagged for a closer look

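For 14 of 3843 genes the difference between mutants and wild types was not the same in neutrophils as in classical monocytes, by the interaction of genotype and cell type (edgeR's quasi-likelihood test), and the 10 with the smallest adjusted p are given. With DESeq2, or within both limits on mitochondrial share and tubule markers, 0 passed (75 and 125 at an unadjusted p under 0.05), and at most 2 did with a library left out. The mutant effect in neutrophils minus that in monocytes was higher for Hcar2 by 4.77 on the log2 scale. Hcar2 was low in monocytes and was called in 7 of the 19 settings tried. Among mitochondrial mRNAs this difference was 3.41 for mt-Nd4l, 3.37 for mt-Nd2, 3.27 for mt-Nd4, 3.26 for mt-Nd5, 3.22 for mt-Nd1 and 3.15 for mt-Nd3. It was -4.30 for Ckb, -4.42 for Chka and -9.60 for P3h2. The neutrophil UMIs of P3h2 came from 1 barcode of wild type 1 and those of Ckb and Chka mostly so, while 10 of the 13 neutrophils above 10% mitochondrial UMIs were in mutant 2.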

How the results depend on the processing

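Differences are mutant minus wild type. The neutrophil share of kept barcodes (0.131 percentage points) turned to -0.0011 within both limits on mitochondrial share and tubule markers and ranged from -0.193 to 0.455 when a library was left out, the lowest without wild type 2. The share of leukocytes (0.0169) turned to -0.0140 at 25% mitochondrial UMIs, -0.00309 without Scrublet calls, -0.0782 at 10%, -0.00809 below 10 tubule marker UMIs and -0.0753 within both limits, and ranged from -0.610 (without wild type 2) to 0.643 with a library left out. The median mitochondrial share (0.148) ranged from -0.119 (without mutant 2) to 0.415. Genes changed between genotypes, 2 in the reported analysis, numbered 29 without a filter, 4 with DESeq2, 3 with RLE or without mitochondrial genes (Ccl3 among them), 1 with library totals, at 1000 UMIs, at 50 S100 UMIs or with S100a8 and S100a9 left out, 0 at 25% mitochondrial UMIs, at 10 S100 UMIs, without Scrublet calls, below 10 tubule UMIs or within both limits, 10 without the deepest barcode, and 9 (without mutant 2) to 48 (without wild type 2) with a library left out. The replicate numbers were not taken as pairs in the planned model. Same-numbered libraries correlated at 0.078 in their deviations from the group mean. With 2 libraries a group those deviations are exact opposites, so this value can neither show nor exclude pairs. The replicate block gave 0 calls (81 at an unadjusted p under 0.05). Genes differing from monocytes, 1356, numbered 2039 without a filter and 929 to 1847 with a library left out. Interaction calls, 14, fell to 3 with RLE, 2 without a filter, 0 with DESeq2, 1 with S100a8 and S100a9 left out, 4 without mitochondrial genes, 3 at 10% mitochondrial UMIs, 0 below 10 tubule UMIs, 0 within both limits, 1 without the deepest barcode and 0 to 2 with a library left out. There RLE moved the median of all genes from 0.22 to -0.06. The interaction of Ckb ranged from -5.75 without mutant 2 to 4.82 without wild type 1, that of mt-Nd3 to -0.15 at 10% mitochondrial UMIs and -0.48 within both limits, and that of mt-Nd4l to -0.12 at 10%, a limit that selects on these genes. The cause was otherwise not tested. With 4 neutrophils, wild type 2 limits every comparison of genotypes.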
